A study of Mus musculus with 120 samples.

Results

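The genes described here encode 10 matricellular wound-healing proteins: Tnc, Tnn, Postn, Sparc, Thbs1, Thbs2, Fn1, Cthrc1, Aspn and Edil3. They were taken by gene symbol from both deposited expression tables, which share 55487 genes, and each table held all 10. The list was named with earlier results of these data in view, so the values below describe these genes, and the adjusted p-values for their change after 6 weeks are no independent evidence of it. The samples were explants of a microporous polycaprolactone scaffold placed under the back skin of female mice, termed an immunological niche (IN). The groups were defined by strain and outcome. NOR/LtJ mice (NOR, 23 samples from 5 mice) are the diabetes-resistant relatives of the NOD strain and were sampled at an age of 6, 10, 14, 18 or 22 weeks. NOD/ShiLtJ mice that stayed normoglycemic (nonprogressors, 39 samples) were sampled at the same ages in batch 1, at 6 and 14 weeks in batch 2, and in 6 further batch 1 samples by days after implantation. NOD/ShiLtJ mice that became hyperglycemic (progressors, 58 samples from 10 mice) were sampled at 6 weeks of age and then at 7, 5, 3 and 1 weeks before onset and at onset.

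Every mouse carried 4 scaffolds from 4 weeks of age, so no sample lacked an implant. Removed scaffolds were replaced in rotation, and a 6-week sample always came from a first implant, placed at 4 weeks of age. Labels by age or onset do not give how long a later scaffold had been in place. Mouse age, implant order and time in place thus cannot be told apart in any comparison with 6 weeks. Within a group, samples that share a mouse number were taken as 1 animal, except those labelled by days after implantation, whose numbers were not tied to the other nonprogressors. Batch 1 held 74 samples, with all NOR mice, and batch 2 held 46; they were sequenced on different instruments. The 7-week-before-onset samples were all in batch 2, and 4 of the 8 came from mice whose other samples were in batch 1. A fit within each batch was therefore made, and levels, in CPM (the share of a library's counts, scaled to a fixed total) adjusted by the TMM factors of each batch's table, are not comparable between batches.

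Matricellular proteins are secreted into the extracellular matrix without being its main structural fibers. They bind collagens, growth factors and cell-surface integrins, are sparse in most resting adult tissues, and are made in quantity during development, wound repair and the response to an implanted material. Fibronectin is the structural exception in this list, since it builds the provisional matrix on which the others assemble.

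Total counts per library were 4722396 to 56185434 in batch 1 and 29029239 to 43880986 in batch 2. One NOR library at 18 weeks (mouse 5) had 85.7% of its counts on a single ribosomal RNA gene, and 3 of the 4 nonprogressor libraries at 22 weeks had 19.2% to 30.5% of theirs on Rn7s2, the RNA of the signal recognition particle. Fibroblast markers were present throughout: their summed level was 366 to 911 CPM in the 9 NOD samples of batch 1 at 6 weeks and 544 to 1514 CPM in the 12 of batch 2. Macrophage markers summed to 3683 to 5543 CPM and 6736 to 9214 CPM in those same samples. The median levels of the bone genes Bglap and Ibsp were 0. These are bulk samples, so fewer cells that make a transcript and less of it per cell cannot be told apart.

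Promoters are shown for Postn, Sparc, Thbs2 and Aspn, members with a large change after 6 weeks and a promoter entry, as the 250 bases immediately upstream of the RefSeq transcription start (GRCm38.p6, sense strand). Capitals mark the letters TATAAA of a TATA box, the letters CAGACA of a SMAD element, or the reverse complements of these, TTTATA and TGTCTG.
Postn (chr3:54360857-54361106, plus strand): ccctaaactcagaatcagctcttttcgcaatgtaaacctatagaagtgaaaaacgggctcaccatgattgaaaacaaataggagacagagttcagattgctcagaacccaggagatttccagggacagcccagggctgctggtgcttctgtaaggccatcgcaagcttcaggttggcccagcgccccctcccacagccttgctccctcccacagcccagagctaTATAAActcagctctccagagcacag
Sparc (chr11:55420081-55420330, minus strand): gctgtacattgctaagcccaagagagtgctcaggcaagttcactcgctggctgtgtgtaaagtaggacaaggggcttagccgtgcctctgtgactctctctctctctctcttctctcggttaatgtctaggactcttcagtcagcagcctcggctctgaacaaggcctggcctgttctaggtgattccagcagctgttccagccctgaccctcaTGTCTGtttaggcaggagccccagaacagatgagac
Thbs2 (chr17:14694263-14694512, minus strand): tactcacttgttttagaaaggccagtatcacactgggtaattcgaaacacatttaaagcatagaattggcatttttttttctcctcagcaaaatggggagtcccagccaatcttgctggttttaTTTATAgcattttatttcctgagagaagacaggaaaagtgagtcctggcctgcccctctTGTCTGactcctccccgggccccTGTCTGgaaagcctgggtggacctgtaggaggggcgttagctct
Aspn (chr13:49544193-49544442, plus strand): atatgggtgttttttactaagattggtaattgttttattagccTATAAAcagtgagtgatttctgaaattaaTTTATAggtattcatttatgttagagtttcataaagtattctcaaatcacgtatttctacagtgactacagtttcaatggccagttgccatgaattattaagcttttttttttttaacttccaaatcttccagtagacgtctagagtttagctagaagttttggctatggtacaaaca
Of the 10 members, 6 had a promoter entry. TATAAA on either strand was found in 4 of these 6 (Postn, Thbs2, Aspn and Tnc), against 12.4% of 32851 promoters. In Postn it lay 26 bases upstream of the start, and in Aspn the pair of matches lay 207 and 178 bases upstream. CAGACA on either strand was found in 2 of 6 (Sparc and Thbs2), against 17.1% of all promoters, and occurred at 67 and at 44 bases upstream in Thbs2. The AP-1 letters TGANTCA were in 0 of 6, against 6.75%, and the TEAD letters GGAATG in 1 of 6 (Tnn), against 12.6%. A match is only a run of letters, and nothing was measured at these promoters.

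In the GENCODE M21 annotation of GRCm38 all 10 are protein-coding genes. Postn spans chr3:54361109-54391037, Sparc chr11:55394500-55423183, Thbs2 chr17:14665500-14694235, Aspn chr13:49544443-49567565 and Cthrc1 chr15:39076932-39087121. Tnc spans chr4:63959785-64047015, Tnn chr1:160085029-160153580, Thbs1 chr2:118111876-118127133, Fn1 chr1:71585520-71653200 and Edil3 chr13:88821472-89323223. The RefSeq start used for the Sparc promoter lies inside its GENCODE span.

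Per kilobase of exon sequence (the union of all annotated exons of a gene), Sparc and Fn1 were by far the most abundant members. In progressors at 6 weeks in batch 2 the median level per length was 1151 CPM per kb for Sparc and 1083 CPM per kb for Fn1, then 237 for Postn, 119 for Tnc, 107 for Thbs2, 99.3 for Aspn, 80.4 for Thbs1, 77.5 for Cthrc1, 35.9 for Tnn and 1.87 for Edil3. At onset in the same batch Fn1 stood alone at 1028 CPM per kb. Sparc was then at 282, Thbs1 at 75.4, Tnc at 50.6 and Postn at 39.8 CPM per kb, and Thbs2 (20.6), Cthrc1 (8.98), Tnn (8.88), Aspn (6.29) and Edil3 (0.805) followed.

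**Figure D1:**
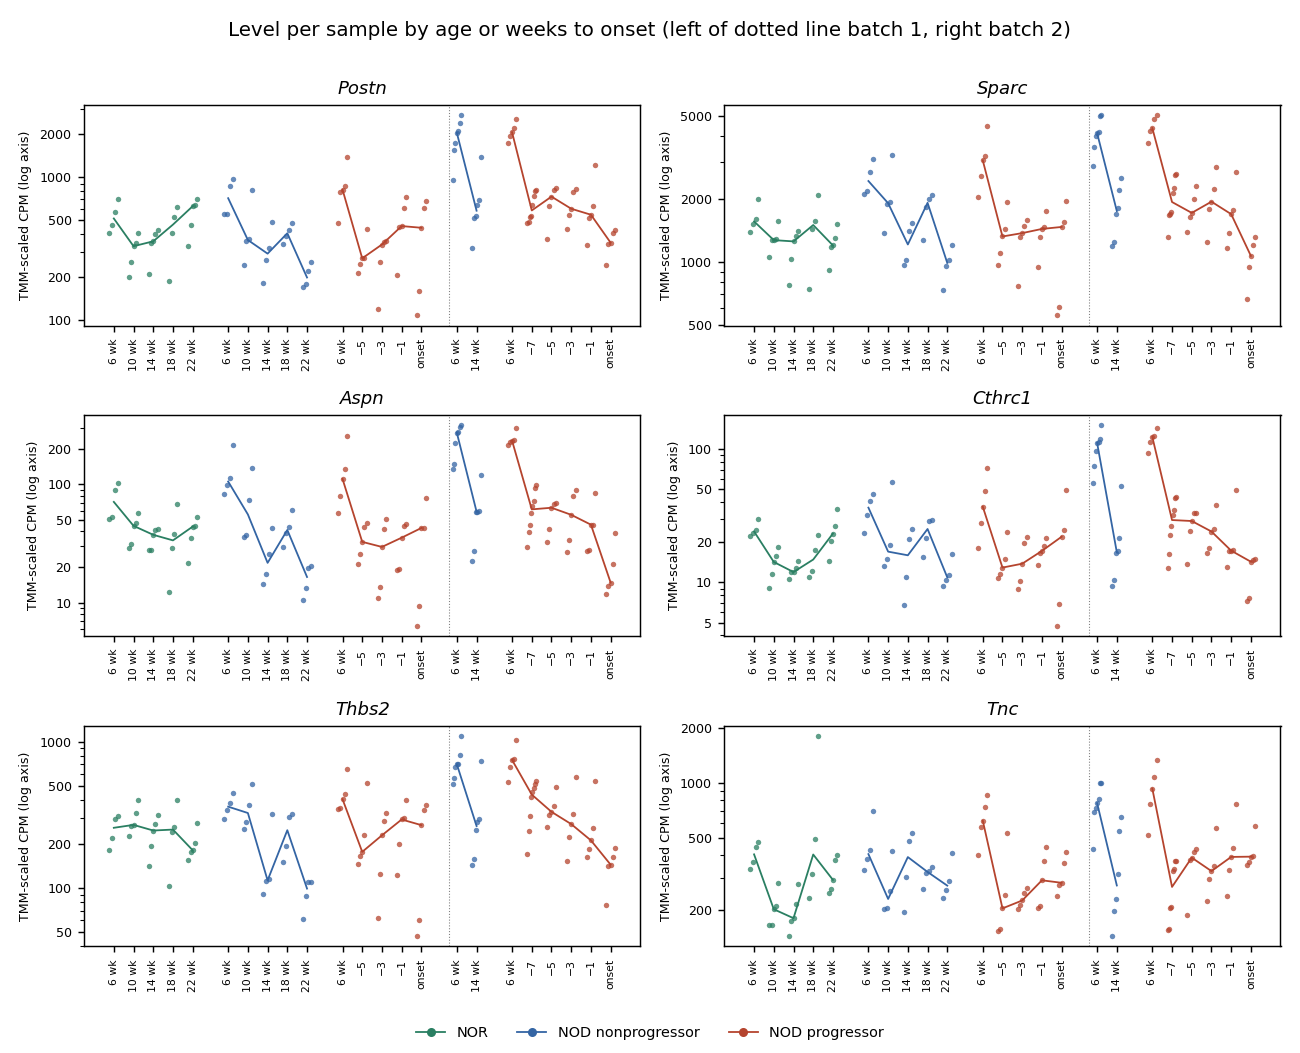
TMM-scaled CPM (log axis) of Postn, Sparc, Aspn, Cthrc1, Thbs2 and Tnc by age or time to onset; points are samples, lines join group medians, and batch 1 lies left of the dotted line and batch 2 right of it, with NOR in green, nonprogressors in blue and progressors in red. In batch 2, all 20 later progressor samples lay below the 5 at 6 weeks for Postn, Sparc, Cthrc1 and Aspn, as for 2.92% of all genes. In batch 1 progressors this held for Sparc alone of the 10, and for 1.12% of all genes.

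In NOD mice of both outcomes Postn, Sparc, Aspn and Edil3 were lower after 6 weeks in each batch. Later samples were compared with 6-week samples by edgeR's quasi-likelihood test, and a gene was called at an adjusted p (Benjamini-Hochberg over all genes tested) under 0.05. The number of members lower after 6 weeks was 5 of 10 in batch 1 nonprogressors (6.61% of all genes were called lower, 7.15% higher and 13.8% in either direction), 8 of 10 in batch 2 nonprogressors (17.3%, 16.8% and 34.1%), 6 of 10 in batch 1 progressors (13.4%, 13.7% and 27.1%) and 8 of 10 in batch 2 progressors (16.4%, 14.8% and 31.2%). None of the 10 was higher in any of the 4 comparisons. The median log2 change of the 10 was −0.86, −1.22, −1.18 and −1.48 in that order, with the median of all genes within 0.03 of 0. Sparc, Postn, Aspn and Edil3 were called in all 4, Cthrc1, Tnc and Thbs2 in 3 each, Tnn in 2, and Thbs1 and Fn1 in none. Every later sample lay below every 6-week sample for 3 members in batch 2 nonprogressors (Sparc, Cthrc1 and Aspn, with 5.56% of genes), 1 in batch 1 progressors (Sparc, with 1.12%), 4 in batch 2 progressors (Postn, Sparc, Cthrc1 and Aspn, with 2.92%) and none in batch 1 nonprogressors.

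Postn encodes periostin, which binds type I collagen and fibronectin and takes part in collagen cross-linking. In batch 2 progressors its 6-week levels were 1746, 1934, 2065, 2218 and 2549 CPM, and at onset 243, 341, 346, 402 and 425 CPM. The 20 later samples ran from 243 to 1218 CPM (median 542), so no later sample reached the lowest 6-week one. The log2 change was −1.91 (SE 0.18; edgeR adjusted p = 5.93e-09), 3.77-fold lower. In batch 1 progressors, where 6-week levels were 473, 789, 818, 872 and 1394 CPM, the 20 later samples ran from 107 to 719 CPM (median 344; log2 change −1.29, SE 0.30, edgeR adjusted p = 0.00437), and the groups overlapped. Nonprogressors of batch 1 had 550, 553, 869 and 972 CPM at 6 weeks and 170 to 805 CPM (median 329) in 16 later samples, 2.25-fold lower (SE 0.24 on the log2 scale; edgeR adjusted p = 0.00548), with lower later means in 4 of 4 mice. In batch 2 nonprogressors Postn went from 948 to 2741 CPM (median 2044) at 6 weeks to 319, 515, 529, 633, 690 and 1387 CPM at 14 weeks, 2.86-fold lower; mouse 5 gave both the lowest 6-week and the highest 14-week value.

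Sparc encodes osteonectin, a calcium-binding protein that chaperones collagen outside the cell. In batch 2 progressors it measured 3683, 4216, 4358, 4836 and 5020 CPM at 6 weeks and 665 to 2838 CPM (median 1665) in the 20 later samples (log2 change −1.47, SE 0.16, edgeR adjusted p = 5.13e-08). In batch 1 progressors it measured 2047, 2587, 3057, 3209 and 4464 CPM at 6 weeks and 555 to 1952 CPM (median 1405) later, 2.33-fold lower (edgeR adjusted p = 0.000658). It was the one member whose later and 6-week samples did not overlap in that batch. Batch 2 nonprogressors went from 2862 to 5049 CPM (median 4125) at 6 weeks to 1186 to 2504 CPM at 14 weeks, again without overlap, 2.32-fold lower. The change was smaller in batch 1 nonprogressors, 1.71-fold (edgeR adjusted p = 0.012), from 2108, 2188, 2682 and 3091 CPM to 733 to 3251 CPM.

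Aspn, a small leucine-rich proteoglycan that binds collagen and TGF-beta, had the largest or next to largest log2 change of the 10 in each of these 4 comparisons. Its 6-week levels in batch 2 progressors were 214, 227, 234, 234 and 301 CPM, and its onset levels 11.9, 14.0, 14.8, 21.4 and 38.7 CPM. Over all later samples the change was 5.85-fold lower (log2 −2.55, SE 0.25, edgeR adjusted p = 1.05e-08). In batch 1 progressors it was 3.85-fold lower (edgeR adjusted p = 0.00128), in batch 1 nonprogressors lower by a log2 value of −1.92 (SE 0.30; edgeR adjusted p = 0.00144) and in batch 2 nonprogressors 4.18-fold lower (edgeR adjusted p = 0.000886). All 6 batch 2 nonprogressor mice with both ages had the lower value at 14 weeks.

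Cthrc1, a secreted collagen triple helix repeat protein of repairing vessels and skin, changed most in batch 2. Batch 2 progressors had 93.2, 113, 123, 127 and 145 CPM at 6 weeks and 7.22 to 49.3 CPM (median 17.4) later, 5.89-fold lower (log2 −2.56, SE 0.23, edgeR adjusted p = 3.73e-09). Batch 2 nonprogressors went from 56.1 to 151 CPM at 6 weeks (median 111) to 9.46, 10.4, 16.6, 17.1, 21.4 and 53.2 CPM, 4.88-fold lower. In batch 1 the 6-week levels were lower, at 18.0 to 72.1 CPM in progressors and 23.5 to 46.2 CPM in nonprogressors. There the log2 change was −1.26 in progressors (SE 0.33; edgeR adjusted p = 0.00797) and −0.94 in nonprogressors (SE 0.32; edgeR adjusted p = 0.06), and the latter was not called.

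The thrombospondins did not move as a pair. Thbs2, which limits vessel growth and clears matrix metalloproteinases, measured 525, 667, 748, 756 and 1018 CPM in batch 2 progressors at 6 weeks and 76.1 to 571 CPM (median 241) later, 2.93-fold lower. It was also called lower in nonprogressors of batch 2 (2.33-fold) and of batch 1 (1.93-fold, edgeR adjusted p = 0.0246), and gave −0.92 (SE 0.38; edgeR adjusted p = 0.0734) in batch 1 progressors. Thbs1, an activator of latent TGF-beta released by platelets and macrophages, had log2 changes of 0.02, 0.16, −0.08 and 0.04 in the 4 comparisons, with SEs of 0.26 to 0.39, and none was called. The batch 2 progressors had 319, 427, 488, 498 and 788 CPM of Thbs1 at 6 weeks and 128 to 837 CPM (median 517) later.

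Tnc, or tenascin C, is the tenascin of wound edges and is counter-adhesive to cells. In batch 1 progressors it went from 401, 569, 619, 737 and 851 CPM at 6 weeks to 154 to 527 CPM (median 245), 2.30-fold lower (SE 0.21 on the log2 scale; edgeR adjusted p = 0.000544). In batch 2 it was 2.38-fold lower in progressors and 2.25-fold lower in nonprogressors (edgeR adjusted p = 0.0138), and in batch 1 nonprogressors the log2 change was −0.56 (SE 0.23; edgeR adjusted p = 0.116). Tnn, or tenascin N, is found in the matrix around bone and hair follicles. Batch 2 progressors had 162, 202, 209, 281 and 285 CPM at 6 weeks and 24.0 to 170 CPM (median 61.8) later, with a slight overlap. It was 2.83-fold lower there and 3.38-fold lower in batch 2 nonprogressors (edgeR adjusted p = 0.0175), with log2 changes of −0.66 (SE 0.50) and −0.35 (SE 0.38) in the batch 1 groups, which were not called.

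Edil3 encodes an integrin-binding protein of the milk fat globule factor family that tethers apoptotic cells to phagocytes, and it was the least abundant member. It was 2.07- to 2.26-fold lower in the 4 comparisons (edgeR adjusted p = 0.00279 in batch 1 nonprogressors and 0.00582 in batch 2 nonprogressors). In batch 1 progressors it measured 10.3, 11.4, 14.6, 18.3 and 21.3 CPM at 6 weeks and 2.81 to 25.9 CPM (median 5.74) later, and the groups overlapped. Fn1, fibronectin, measured 6879, 7423, 7426, 11027 and 12896 CPM in batch 1 progressors at 6 weeks and 4212 to 15816 CPM (median 9397) later. Its log2 change was 0.40 (SE 0.28), −0.56 (SE 0.27), 0.01 (SE 0.22) and −0.42 (SE 0.22) in the order of the comparisons above, and was not called in any.

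**Figure D2:**
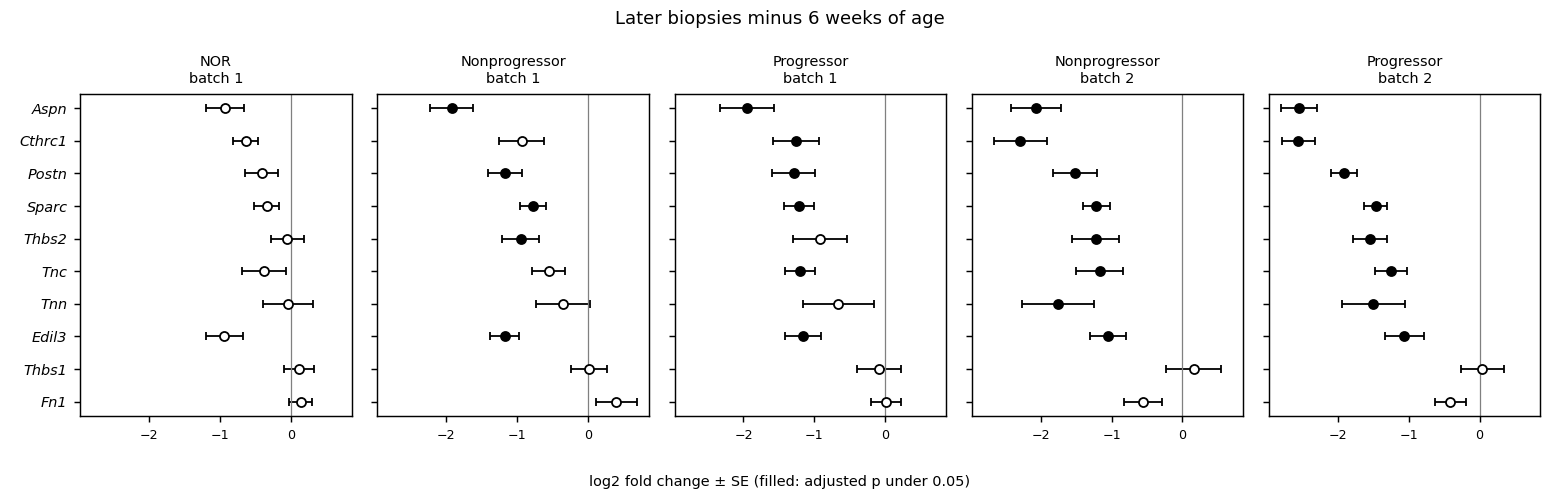
Log2 change of each member from 6 weeks to all later samples (x axis) in NOR mice and in nonprogressors and progressors of each batch, with error bars of 1 SE and filled points where the edgeR adjusted p was under 0.05. In the 4 NOD comparisons 5 to 8 of 10 members were called lower and none higher, beside 6.61% to 17.3% of all genes called lower. None was called in NOR mice, where 0.0357% of all genes were called in either direction.

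The count of calls in batch 2 nonprogressors turned on single animals. At 14 weeks mouse 5 had the highest of the 6 values for every member except Edil3, for example 1623 CPM of Thbs1 against 197 to 427 CPM in the others and 16436 CPM of Fn1 against 4713 to 8503 CPM. Without that mouse 10 of 10 were called lower (20.1% of genes), Thbs1 with −0.56 (edgeR adjusted p = 0.0085) and Fn1 with −0.97 (edgeR adjusted p = 0.000226), and without mouse 9 the count was 5 (13.9%). In batch 1 nonprogressors 3 were called without mouse 1 (1.14%). With mouse as a block the counts were 5, 8, 7 and 8 in the 4 NOD comparisons, the added call being Thbs2 in batch 1 progressors (edgeR adjusted p = 0.0316). The shares of all genes given for these comparisons are from the fits without a block.

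Markers of some other cells changed after 6 weeks as well, and their part in these values was not tested. The summed level of 7 fibroblast markers was 164 to 860 CPM (median 495) in later batch 2 progressors against a 6-week median of 1209 CPM in batch 2 NOD mice, and 130 to 860 CPM (median 322) against 566 CPM in batch 1. Of the 7, the number called lower was 3, 7, 4 and 7 in batch 1 nonprogressors, batch 2 nonprogressors, batch 1 progressors and batch 2 progressors. Proliferation genes (5) were called lower for 4, 5, 3 and 5. Macrophage markers (7) were called lower for 0, 3, 0 and 0 and higher for 1, 0, 0 and 1. In batch 2 the 6 skeletal muscle markers summed to 24.2 to 1651 CPM (median 148) at 6 weeks and to 40.6 to 20540 CPM (median 13550) in the 14-week nonprogressors, where all 6 were called higher. In batch 2 progressors 0 of the 6 were called.

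The time course was described with a fit of each time against 6 weeks, chosen after the data were seen. In batch 2 progressors 7 members were lower at 7 weeks before onset (9.32% of all genes were called lower and 9.75% higher), 6 at 5 weeks (6.43%), 6 at 3 weeks (8.95%), 7 at 1 week (9.99%) and 7 at onset (17.2%). In batch 1 progressors the counts were 5 at 5 weeks before onset (10.4%), 6 at 3 weeks (6.17%), 4 at 1 week (3.43%) and 4 at onset (8.25%). In batch 1 nonprogressors they were 0 at 10 weeks (0.543% of genes in either direction), 4 at 14 weeks (2.46%), 1 at 18 weeks (0.558%) and 7 at 22 weeks (9.85%). At 10 weeks 2 had an unadjusted p under 0.05 in either direction. In NOR mice they were 0 at 10 weeks (0.209% of genes in either direction), 0 at 14 weeks (0%), 0 at 18 weeks (0.0815%) and, at 22 weeks, 1 lower (0.438%) and 1 higher (0.642%). The NOR calls at 22 weeks were Edil3 (−2.37, edgeR adjusted p = 0.00175) and Fn1 (0.95, edgeR adjusted p = 0.0204). At the first 3 of these ages 6, 5 and 4 members had an unadjusted p under 0.05. Those counts take both directions, and the share of all genes at an unadjusted p is not given for fits of single times. Thus 7 members were already called lower at the earliest later time of batch 2 progressors, Fn1 among them and Edil3, Tnn and Thbs1 not. At the earliest later time of batch 1 nonprogressors 0 were called. The samples at these times differ in batch, number and age, and the difference in timing was not itself tested.

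In NOR mice none of the 10 was called over all later ages (0.0357% of genes, 7 of 19628, were called in either direction). Edil3 (−0.94, SE 0.26), Aspn (−0.93, SE 0.27) and Cthrc1 (−0.64, SE 0.18) had an unadjusted p under 0.05, as had 1341 of the 19628 genes. Their edgeR adjusted p was 0.334, 0.37 and 0.341, and DESeq2 called 0 of the 10. Without NOR mouse 4 Aspn was called (−1.21, edgeR adjusted p = 0.0438). Over all genes, 0 to 54 were called with each mouse left out. Postn measured 406, 458, 566 and 702 CPM at 6 weeks and 187 to 700 CPM (median 397) in the 19 later samples. Sparc measured 1394, 1521, 1603 and 2000 CPM and 745 to 2087 CPM. Values of both overlapped throughout. At 18 weeks NOR mouse 4 had 1810 CPM of Tnc, against 235, 317 and 491 CPM in the other 3 mice. Without the library in which ribosomal RNA took most counts, none of the 10 was called in NOR mice either.

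The strains were compared directly. At 6 weeks in batch 1 edgeR called none of the 10 between 9 NOD and 4 NOR samples (0.865% of genes were called higher in NOD, 1.25% lower and 2.11% in either direction). Sparc was nearest, with 0.78 higher in NOD on the log2 scale (SE 0.20; edgeR adjusted p = 0.0652), then Thbs2 with 0.68 (SE 0.20) and Postn with 0.59 (SE 0.25; edgeR adjusted p = 0.319). These 3 had an unadjusted p under 0.05, as had 2589 of 19078 genes. DESeq2, which called more genes over all than edgeR here, called Sparc and Thbs2. At 10 to 22 weeks edgeR called none of the 10 between nonprogressors and NOR mice (2.37% of genes higher, 2.68% lower and 5.05% in either direction). Sparc at 0.35 (SE 0.13) was the one member with an unadjusted p under 0.05, which 4269 of 22128 genes had. The test of whether the change with age differed between the strains called 0 members by either tool (0% of genes by edgeR). An unadjusted p under 0.05 was found for 3 members and for 1250 of 20647 genes. The 3 had more negative values in NOD: Aspn −0.97 (SE 0.45), Thbs2 −0.88 (SE 0.38) and Postn −0.73 (SE 0.36). This test held nonprogressors and NOR mice of batch 1, and the change in progressors was not tested against NOR mice. A fall called in NOD and not in NOR mice is thus not shown to differ between them.

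**Figure D3:**
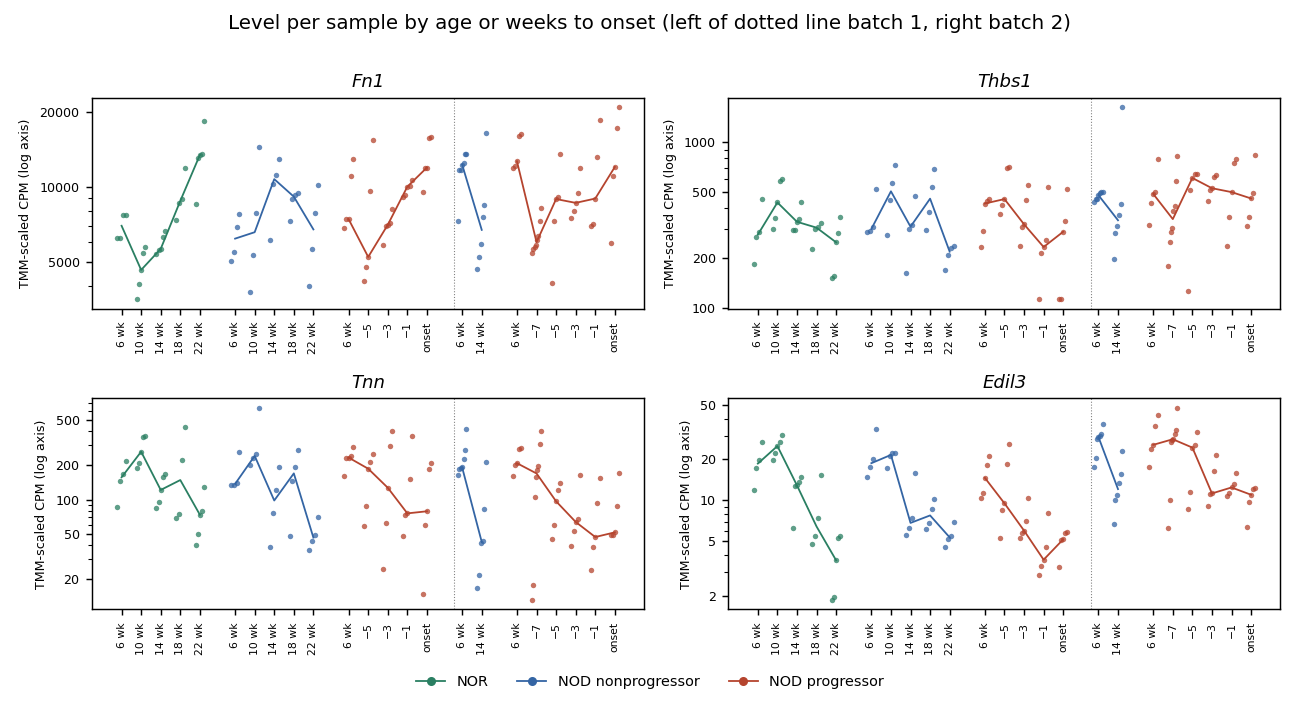
TMM-scaled CPM (log axis) of Fn1, Thbs1, Tnn and Edil3 by age or time to onset, drawn as in the plot of Postn and the other falling members. Fn1 in NOR mice was 3556 to 5771 CPM at 10 weeks and 8568 to 18274 CPM at 22 weeks, and Edil3 in the same samples went from 19.8 to 30.4 CPM to 1.86 to 5.49 CPM.

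Among the later ages, 22 weeks was compared with 10 weeks in each strain, a comparison chosen after the data were seen. In NOR mice 3 members were higher and 3 lower at 22 weeks (5.28% and 5.01% of genes). Fn1 went from 3556, 4088, 4654, 5454 and 5771 CPM at 10 weeks to 8568, 13060, 13420, 13510 and 18274 CPM at 22 weeks, 2.90-fold higher (log2 1.53, SE 0.19, edgeR adjusted p = 4.94e-05). Edil3 went the other way, from 19.8, 22.2, 25.1, 27.0 and 30.4 CPM to 1.86, 1.97, 3.63, 5.34 and 5.49 CPM, 6.70-fold lower (edgeR adjusted p = 4.96e-05). Neither gene's ages overlapped, as held for 6.62% of genes with every 22-week sample higher and 7.98% with every one lower. Cthrc1 (1.77-fold, edgeR adjusted p = 0.017) and Postn (1.84-fold, edgeR adjusted p = 0.0483) were higher as well, and Tnn (3.65-fold, edgeR adjusted p = 0.0066) and Thbs1 (1.87-fold, edgeR adjusted p = 0.0222) lower. With mouse as a block Postn was no longer called (edgeR adjusted p = 0.0874), and without mouse 5 the count was 2 of 10. Calls over all genes ran from 680 to 2240 with each mouse left out, against 2020 with all mice.

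In nonprogressors 7 members were lower at 22 than at 10 weeks and none higher (7.13% of genes were lower, 6.08% higher and 13.2% in either direction). Tnn fell 6.52-fold (202, 232, 253 and 639 CPM to 36.3, 43.5, 49.4 and 70.4 CPM), Aspn 4.34-fold (35.9, 37.5, 73.9 and 136 CPM to 10.6, 13.3, 19.7 and 20.6 CPM), Thbs2 3.77-fold and Edil3 3.67-fold (edgeR adjusted p = 0.0036, 0.00533, 0.003 and 0.000849). Postn, Sparc and Thbs1 fell 2.13-, 2.12- and 2.35-fold. Without mouse 4 the count was 2. Calls over all genes dropped as well, from 2603 to between 731 and 1769 with each mouse left out. The 22-week libraries with much Rn7s2 are in this comparison, and the part of that RNA was not tested. Edil3, Tnn and Thbs1 were called lower in both strains. Fn1 gave −0.16 (SE 0.35; edgeR adjusted p = 0.805), with 3811, 5350, 7827 and 14479 CPM at 10 weeks and 4022, 5631, 7889 and 10211 CPM at 22 weeks.

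The difference between the strains in this change was tested in the same fit, and 4 members were called, all more negative in nonprogressors (2.77% of genes were called in that direction and 3.55% in either). They were Postn (−1.95, SE 0.44, edgeR adjusted p = 0.00858), Fn1 (−1.68, SE 0.38, edgeR adjusted p = 0.00866), Cthrc1 (−1.90, SE 0.48, edgeR adjusted p = 0.0185) and Aspn (−2.06, SE 0.55, edgeR adjusted p = 0.0277). The calls turned on nonprogressor mouse 4. Its 10-week sample had 805 CPM of Postn, 56.4 CPM of Cthrc1, 136 CPM of Aspn and 14479 CPM of Fn1, above the other 3. In its 22-week library 30.5% of counts fell on Rn7s2. Leaving the mouse out removed both of these samples and left 3 mice, and the part of each sample was not tested. Without that mouse none of the 10 was called, with Postn at −1.53 (edgeR adjusted p = 0.15), Fn1 at −1.13 (0.198), Cthrc1 at −1.18 (0.273) and Aspn at −1.68 (0.216). Without NOR mouse 1 the call was Postn alone, without NOR mouse 5 the count was 2, and with mouse as a block it was 3. Over all genes, 60 to 1002 were called with each mouse left out, against 733 with all mice. Fibroblast marker sums moved with these values: NOR mice had 261 to 376 CPM at 10 weeks and 374 to 911 CPM at 22 weeks, and nonprogressors 349 to 1044 CPM and 131 to 267 CPM, and the part of these cells was not tested.

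**Figure D4:**
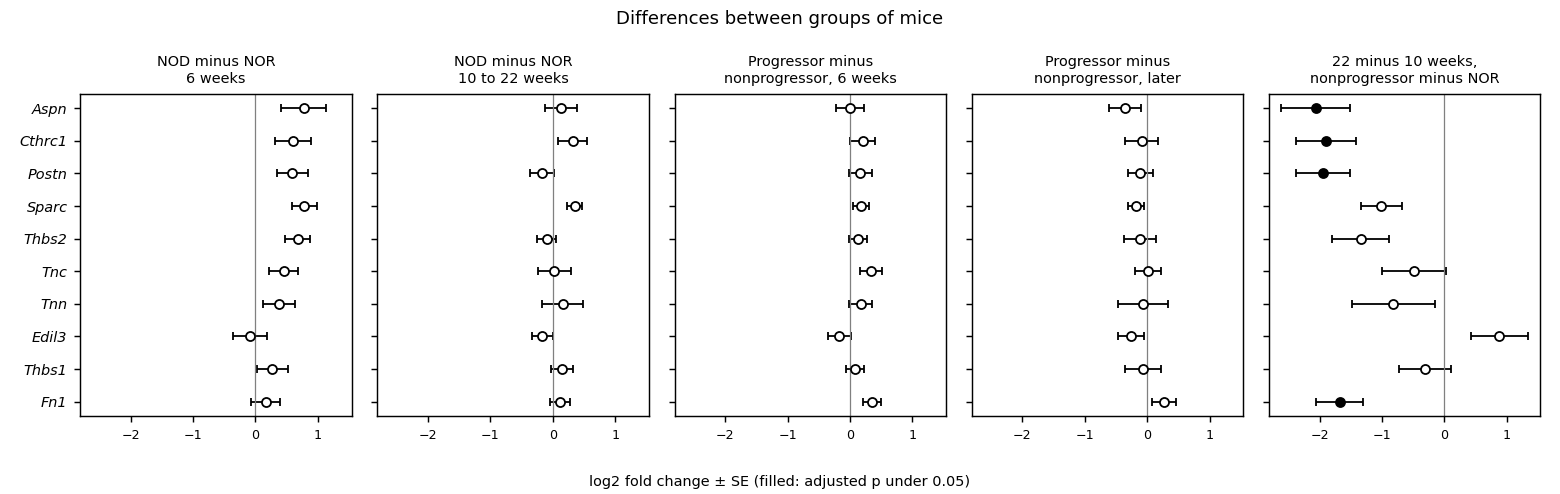
Log2 difference of each member between groups (x axis), with error bars of 1 SE and filled points where the edgeR adjusted p was under 0.05; the panels are the strain at 6 weeks, the strain at 10 to 22 weeks, progression at 6 weeks, progression after 6 weeks, and the strain difference in the change from 10 to 22 weeks. Points were filled in the last panel alone, for Postn, Fn1, Cthrc1 and Aspn, beside 2.77% of all genes called in that direction. Without nonprogressor mouse 4 none of the 10 was called there.

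Progressors were then compared with nonprogressors, with batch as a term. At 6 weeks none of the 10 was called (0% of genes; 985 genes had an unadjusted p under 0.05), and DESeq2 called none. Fn1 was 0.35 higher in progressors on the log2 scale (SE 0.14) and was the one member with an unadjusted p under 0.05. After 6 weeks edgeR called none of the 10 (0.0132% of genes, 3 in number), and none had an unadjusted p under 0.05, which 2158 genes had. Log2 differences of the 10 ran from −0.35 for Aspn to 0.27 for Fn1. The change over time was not called different between outcomes for any member by either tool (0% of genes by edgeR). The later samples of the outcomes were not matched in age, since progressor samples were timed by onset.

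The sample 7 weeks before onset was compared with later ones in batch 2 progressors, with calls that a mouse block removed. Fn1 had 5460 to 8218 CPM (median 6010) at that time, 11895 to 16335 CPM at 6 weeks and 5974, 11033, 12015, 17180 and 20823 CPM at onset. From 7 weeks before onset to the later times Fn1 was 0.70 higher on the log2 scale (SE 0.19; edgeR adjusted p = 0.0269) and Edil3 0.92 lower (SE 0.24; edgeR adjusted p = 0.0199), the sole calls among the 10 (2.4% of genes were called higher, 3.93% lower and 6.32% in either direction). Edil3 had 6.30, 10.1, 26.7, 27.9, 28.4, 31.0, 32.7 and 47.8 CPM at 7 weeks before onset and 6.40, 9.77, 11.0, 12.2 and 12.5 CPM at onset. With mouse as a block neither was called (Fn1 adjusted p = 0.226 and Edil3 0.338, edgeR). Mice 1 to 4 had only this sample in batch 2, so in the block fit they added nothing to the contrast. In the 4 mice with all times in batch 2, Fn1 was higher later in 4 and Edil3 lower in 2 and higher in 2. Fn1 lost its call without mouse 1, 3, 4, 7, 9 or 10 (edgeR adjusted p from 0.0513 to 0.0833) and Edil3 without mouse 6 or 9 (0.113 and 0.0622), while without mouse 8 the count was 4 (9.36% of genes in either direction). Against 6 weeks, the 7-week sample was already lower for Cthrc1 (−2.05), Aspn (−1.95), Tnc (−1.79), Postn (−1.75), Sparc (−1.14), Fn1 (−1.12) and Thbs2 (−0.93), while Edil3 gave −0.14 (edgeR adjusted p = 0.816).

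From 5 weeks before onset to onset, with batch as a term, Edil3 alone was called, at −1.22 (SE 0.26; edgeR adjusted p = 0.0168; 0.945% of genes were called lower, 0.827% higher and 1.77% in either direction), and also with mouse as a block (edgeR adjusted p = 0.0244). Without mouse 8 or mouse 9 it was not (edgeR adjusted p = 0.0769 and 0.0689), and Fn1, at 0.68 (edgeR adjusted p = 0.0622), was called when mouse 5, 6, 7 or 10 was left out. Calls over all genes ran from 10 to 1088 with each mouse left out, against 377 with all mice. The onset levels of Edil3 in batch 1 were 3.23, 5.08, 5.18, 5.72 and 5.90 CPM. Fits within each batch gave other counts, and the difference between batches was not tested. In batch 2 alone 5 were lower at onset (5.9% of genes were called lower), with log2 changes of −1.45 for Aspn, −1.31 for Thbs2, −1.19 for Cthrc1, −0.94 for Postn and −0.80 for Sparc (edgeR adjusted p from 0.0113 to 0.0265). In batch 1 alone none was (0.0051% of genes in either direction), and Postn (0.50, SE 0.42) and Cthrc1 (0.56, SE 0.45) had positive values. The batch 1 mice were split at onset: mice 3 and 5 had 158 and 107 CPM of Postn, 60.3 and 46.7 CPM of Thbs2 and 9.35 and 6.38 CPM of Aspn, and the other 3 had 441 to 678, 269 to 369 and 42.8 to 76.5 CPM. Fibroblast marker sums moved likewise, from 409 to 749 CPM at 5 weeks before onset to 164 to 273 CPM at onset in batch 2, and from 184 to 325 CPM to 130 to 860 CPM in batch 1, and their part was not tested.

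**Figure D5:**
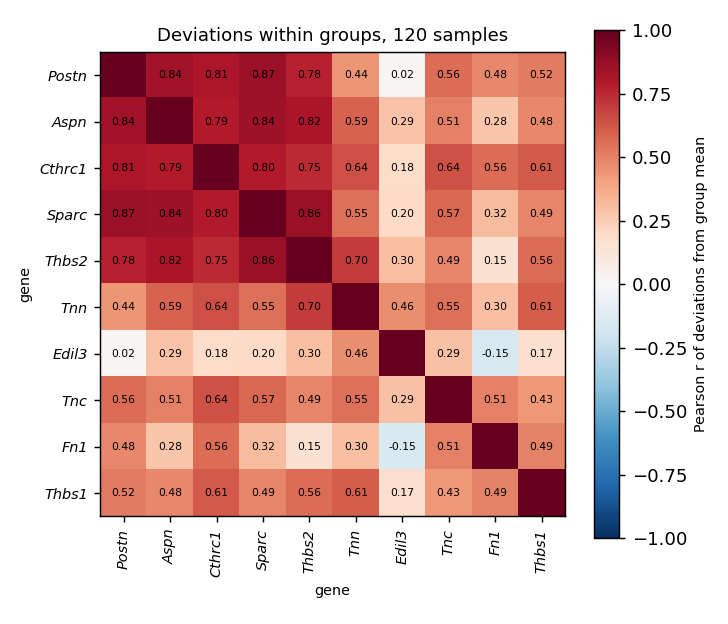
Pearson correlation of each pair of members over 120 samples, after subtracting the mean log2 CPM of each group, time and batch. Postn, Sparc, Aspn, Cthrc1 and Thbs2 form a block of high values, up to 0.867 for Postn with Sparc, and Edil3 and Fn1 lie outside it.

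Some members varied together from sample to sample within groups. After the mean of each group, time and batch was subtracted, Pearson's r over the 120 samples was 0.867 for Postn with Sparc, 0.860 for Sparc with Thbs2, 0.845 for Sparc with Aspn, 0.839 for Postn with Aspn and 0.807 for Postn with Cthrc1. Against the mean of the other 9, with the same means subtracted, r was highest for Cthrc1 (0.879), Sparc (0.829) and Aspn (0.820) and lowest for Thbs1 (0.642), Fn1 (0.420) and Edil3 (0.245). Fn1 with Edil3 gave −0.154. These are descriptions: samples share mice, and all genes of a sample share its library and its mix of cells. With only the batch means subtracted, so that differences between groups and times enter, 15928 other genes were ranked by r with the mean of the 10, and the closest were Fkbp10 (0.929), C1qtnf3, Epb41l3, Col5a1, Ror2, Kdelr2 (0.911), Cdh2, Rcn1 (0.898), Fam114a1 and Kdelr3, and for Fkbp10, an endoplasmic reticulum enzyme that folds collagen, r was 0.886 within batch 1 and 0.965 within batch 2.

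Other genes of the same biology were read from lists chosen with earlier results known. In the order of NOR, batch 1 and batch 2 nonprogressors, and batch 1 and batch 2 progressors, collagen and collagen-processing genes (11) were called lower for 0, 4, 9, 9 and 10 and higher for none. In batch 2 progressors their median log2 change was −1.28, against 0.03 over all genes. Bmp1, the procollagen C-proteinase, gave −1.28 (SE 0.12; edgeR adjusted p = 6.24e-09), Serpinh1, the collagen chaperone, −1.44 (SE 0.16; edgeR adjusted p = 5.55e-08), and Col5a1, a nucleator of collagen fibrils, −1.51 (SE 0.18; edgeR adjusted p = 1.77e-07).

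Small leucine-rich proteoglycans other than Aspn (11) were called lower for 0, 8, 5, 6 and 7 and higher for 0, 0, 0, 0 and 1. In batch 2 progressors Ogn (−2.21), Lum (−1.64) and Dcn (−1.49), which coat collagen fibrils, were lower, and Chad (1.01, edgeR adjusted p = 0.0139) was higher. Matricellular relatives of the 10, of which 18 to 20 were tested, were called lower for 0, 7, 8, 7 and 9 and higher for 0, 1, 2, 2 and 2. Fstl1 (−1.96), Thbs3 (−1.96) and Tnxb (−2.07) were lower in batch 2 progressors. Mfge8, the closest relative of Edil3 and a bridge between apoptotic cells and phagocytes, was higher in all 4 NOD comparisons, at 1.13, 0.92, 1.24 and 1.08.

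Counts among receptors were near those of all genes. Of 16 integrins, syndecans and other receptors of these proteins, 0, 2, 3, 2 and 1 were called lower and 0, 1, 4, 1 and 4 higher in the same order, beside 6.61%, 17.3%, 13.4% and 16.4% of all genes called lower in the 4 NOD comparisons. In batch 2 progressors the collagen receptor Ddr2 was lower (−1.20, SE 0.14, edgeR adjusted p = 1.25e-07), and the tenascin receptor chain Itga9 (0.37) and Itgb5 (0.35) were higher. Of 11 genes of TGF-beta signaling and storage, 0, 3, 5, 4 and 4 were lower and 0, 2, 3, 2 and 2 higher. The latent TGF-beta binding proteins moved apart in batch 2 progressors, Ltbp1 at −1.54 and Ltbp2 at 1.43 (SE 0.23 and 0.20; edgeR adjusted p = 7.87e-06 and 3.78e-06).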

How the data were processed

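Total RNA of 120 scaffold explants was depleted of ribosomal RNA and sequenced in 2 batches. The deposited values are expected counts per gene and sample, which the authors made from their reads; the submitters' processing notes name cutadapt, FastQC, STAR, RSEM, MultiQC and GRCm38. They are whole numbers in the tables, so that rounding changed none of them. The 10 members, the other gene lists and the added comparisons were chosen with earlier results of these data known. Genes with too few counts for their group were dropped by filterByExpr, libraries were scaled by TMM, and groups were compared by edgeR 4.0.16 (R 4.3.3) with its quasi-likelihood test and Benjamini-Hochberg adjustment over all genes, at 0.05. Each SE is the log2 fold change divided by the square root of F. Alternatives were DESeq2 1.42.0, RLE or no scaling factors, no filter, a mouse block, each batch alone and each mouse left out. The most alike of 239 replicate pairs differed by more than sampling noise (chi-square per degree of freedom 11.97).

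Mouse numbers in the labels pair the samples, since 1 mouse gave several explants. Deviations of samples of the same mouse correlated at −0.096 to 0.0226 on average over 2000 genes in the 5 groups tested. Likeness between genes used log2(CPM + 0.5) in genes with a mean of at least 1 CPM, after subtracting the mean of each group, time and batch for the members and of each batch for the ranking of other genes. The later strain comparison used counts summed per mouse. Promoters were searched on both strands with no mismatch. No column lacked a sample. Where counts were summed per mouse, p-values measure the spread between mice. In the other fits without a mouse block they measure the spread between explants, of which several can share a mouse.

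The other lists gave these counts of genes called higher and lower in the order NOR, batch 1 nonprogressors, batch 2 nonprogressors, batch 1 progressors and batch 2 progressors. Pericyte and smooth muscle markers gave 0, 0, 2, 0 and 1 higher and 0, 0, 0, 0 and 2 lower, endothelial markers 0 higher and 0, 0, 0, 1 and 3 lower, and platelet markers 0, 0, 0, 0 and 1 higher and 0, 0, 1, 0 and 0 lower. Epidermis markers gave 0, 1, 1, 1 and 2 higher and 0, 4, 1, 0 and 0 lower, dermal papilla markers 0 higher and 0, 2, 1, 1 and 1 lower, and markers of cartilage, bone and tendon 0 higher and 0, 1, 2, 2 and 2 lower. Adipocyte markers gave 0, 0, 5, 0 and 4 higher and 0, 0, 0, 1 and 0 lower, Schwann cell markers 0 higher and 0, 1, 2, 1 and 2 lower, T cell markers 0, 0, 1, 0 and 2 higher, B cell markers 3 higher in batch 2 progressors alone, and neutrophil markers 1 higher in batch 2 progressors alone. Genes of juvenile growth were lower for 3, 6, 4, 6 and 4 of 6 and higher for none.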

Additional observations from a re-analysis of the deposited data

Results flagged for a closer look

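Of 230 sets of 4 to 8 samples (a gene in a group, time and batch), 12 held a sample far from the rest, about what chance gives (1 in 20). Mouse 8 of the batch 2 progressors accounted for 3 of them: 188 CPM of Tnc and 128 CPM of Thbs1 at 5 weeks before onset, both the lowest of their group, and 581 CPM of Tnc at onset, the highest. In batch 2 nonprogressors, mouse 5 had 7280 CPM of Fn1 at 6 weeks, the lowest, and 1620 CPM of Thbs1 at 14 weeks, the highest. In batch 1 nonprogressors at 6 weeks, mouse 2 had the highest Tnn (261 CPM) and Thbs1 (521 CPM). Mouse 6 of the batch 2 progressors was highest for Aspn at 6 weeks (301 CPM) and for Cthrc1 at 1 week before onset (49.3 CPM). Mouse 4 of the batch 1 progressors was lowest for Sparc at 3 weeks before onset (769 CPM) and for Edil3 at onset (3.23 CPM). NOR mouse 1 stood apart for Edil3 at 14 weeks (6.3 CPM).

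The change from 10 to 22 weeks differed between strains for Postn (−1.95), Fn1 (−1.68), Cthrc1 (−1.90) and Aspn (−2.06 on the log2 scale, nonprogressor minus NOR), by the test of the difference itself, a contrast chosen after the data were seen. Without nonprogressor mouse 4 the difference in Postn, Fn1, Cthrc1 and Aspn was no longer called.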

How the results depend on the processing

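Age, implant order and time in place cannot be told apart, nor within a sample the mix of cells and the RNA per cell. Batch 1 depth went as low as 4722396 counts. Of 2570 member values under an alternative, 146 took the opposite sign, 93 of them with a mouse left out, and 1 of the 146 was called (Thbs1 in batch 2 nonprogressors without mouse 5). In all cases below the cause was not tested. With mouse as a block, 0 members were called from 7 weeks before onset to later times, also in the 4 mice with every time in batch 2, and no count of members other than those given in the report moved by over 1.5 times.

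Counts of members called that moved were 2 for NOR at 22 weeks alone, 0 for batch 1 nonprogressors at 10 weeks alone, 2 under DESeq2, 0 in batch 1 alone and 5 in batch 2 alone for onset against 5 weeks before it, 2 under DESeq2 for the strain at 6 weeks, and 3 without TMM for NOR at 22 against 10 weeks. With each mouse left out they ran from 0 to 1 for NOR age, 3 to 4 and 5 to 10 for nonprogressors of batch 1 and 2, 0 to 4 after 7 weeks before onset, 0 to 2 for onset, 0 to 1 for the strain at 6 weeks, 2 to 5 and 2 to 7 for 22 against 10 weeks in NOR and nonprogressor mice, and 0 to 5 for the strain difference.

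Log2 changes that took the other sign were as follows. NOR age: Thbs1 −0.012 and Fn1 −0.056 without TMM, Tnn 0.10 and Thbs2 0.0055 with the mouse block, Postn 0.063 and Thbs1 −0.31 at 22 weeks alone, and Tnn 0.82, Thbs2 0.23, Fn1 −0.59 and Edil3 0.38 at 10 weeks alone. Batch 1 nonprogressors: Thbs1 −0.24 without TMM and −0.72 at 22 weeks alone, Tnn 0.98 at 10 weeks alone, Fn1 −0.12 with both batches. Batch 2 nonprogressors: Thbs1 −0.25 with the mouse block. Progressors: Fn1 −0.029 without TMM, −0.012 with the mouse block and −0.22 with both batches in batch 1, Thbs1 −0.015 with both batches in batch 2. Onset in batch 1 alone: Postn 0.50, Cthrc1 0.56, Aspn 0.089. Without TMM, Tnc gave −0.069 for the strain at 10 to 22 weeks and −0.49 for nonprogressors at 22 against 10 weeks. Progression at 6 weeks: Thbs1 −0.0062 and Aspn −0.060 without TMM, Aspn −0.0032 without a filter and −0.024 in batch 1 alone, Tnn −0.057 and Edil3 0.074 in batch 2 alone. Progression after 6 weeks: Tnn 0.00020 without TMM, Tnc −0.16, Postn 0.037 and Thbs2 0.0067 in batch 1 alone, Tnn 0.19 and Edil3 0.10 in batch 2 alone. Progression by time: Tnn −0.0098 and Thbs2 −0.0038 under DESeq2, Tnn −0.011 and Thbs2 −0.0038 under RLE factors, Postn 0.050, Thbs1 0.053, Fn1 0.046, Aspn 0.0050 and Edil3 0.0074 without TMM, Tnn −3.58e-05 without a filter, Tnn −0.34, Thbs1 0.024 and Thbs2 −0.25 with the mouse block, Tnn −0.31 and Edil3 0.013 in batch 1 alone, Thbs2 −0.34 and Fn1 0.13 in batch 2 alone.

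With each mouse left out, the log2 changes that crossed 0 ran as follows. NOR age: Tnn −0.13 to 0.084, Thbs1 −0.034 to 0.35, Thbs2 −0.21 to 0.070. Thbs1: −0.15 to 0.28 and −0.56 to 0.33 in nonprogressors of batch 1 and 2, −0.26 to 0.064 and −0.14 to 0.26 in progressors of batch 1 and 2. Fn1 in batch 1 progressors: −0.14 to 0.17. Onset: Postn −0.42 to 0.0050, Cthrc1 −0.61 to 0.022. Strain at 6 weeks: Edil3 −0.26 to 0.13. Strain at 10 to 22 weeks: Tnc −0.087 to 0.33, Tnn −0.24 to 0.30, Thbs1 −0.043 to 0.27, Thbs2 −0.28 to 0.011, Fn1 −0.025 to 0.22, Aspn −0.25 to 0.29. Progression at 6 weeks: Thbs1 −0.038 to 0.17, Aspn −0.16 to 0.15. Progression after 6 weeks: Tnc −0.073 to 0.16, Tnn −0.20 to 0.32, Postn −0.19 to 0.076, Thbs1 −0.15 to 0.34, Thbs2 −0.21 to 0.14, Cthrc1 −0.19 to 0.17. Strain by age: Tnc −0.34 to 0.18, Tnn −0.56 to 0.012, Thbs1 −0.34 to 0.17, Edil3 −0.49 to 0.15. Progression by time: Tnn −0.41 to 0.30, Postn −0.22 to 0.031, Thbs1 −0.23 to 0.019, Thbs2 −0.15 to 0.18, Fn1 −0.21 to 0.031, Aspn −0.42 to 0.072. At 22 against 10 weeks: Sparc −0.14 to 0.015 and Aspn −0.22 to 0.24 in NOR mice, Fn1 −0.42 to 0.40 in nonprogressors, Thbs1 −0.58 to 0.0026 for the strain difference.

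Counts over all genes moved by over 1.5 times as follows, mice left out aside: NOR age from 7 to 46 (DESeq2), 15 (no TMM), 12 (no filter), 2 (mouse block) and 12 (without the ribosomal library); batch 1 nonprogressors from 2712 to 4504 (no TMM) and 5094 (both batches); batch 1 progressors from 5317 to 8403 (both batches); after 7 weeks before onset from 1352 to 17 (mouse block), 75 (4 mice) and 828 (both batches); onset from 377 to 839 (DESeq2), 103 (no filter), 1 (batch 1) and 1973 (batch 2); the strain from 403 to 770 at 6 weeks and from 1117 to 2000 later (DESeq2); progression after 6 weeks from 3 to 79 (DESeq2), 13 (no TMM), 0 (no filter) and 0 (batch 1); strain by age and progression by time from 0 to 9 (DESeq2); 22 against 10 weeks without TMM from 2020 to 525 in NOR and 2603 to 10431 in nonprogressors; the strain difference from 733 to 1183 (DESeq2). With each mouse left out these counts ran from 0 to 54 for NOR age, 377 to 2766 for batch 1 nonprogressors, 2939 to 4996 for batch 1 progressors, 616 to 2011 after 7 weeks before onset, 10 to 1088 for onset, 267 to 420 and 709 to 1024 for the strain at 6 weeks and later, 0 to 20 for progression after 6 weeks, 680 to 2240 and 731 to 1769 for 22 against 10 weeks in NOR and nonprogressor mice, and 60 to 1002 for the strain difference. Leaving out TMM moved the split too: higher genes were 270 of 4504 against 1409 of 2712 in batch 1 nonprogressors, 4210 of 6790 against 3304 of 6710 in batch 2 nonprogressors, 4214 of 6891 against 3163 of 6674 in batch 2 progressors, 95 of 379 against 176 of 377 for onset, 291 of 1240 against 525 of 1117 for the later strain comparison, 235 of 10431 for nonprogressors at 22 weeks and 14 of 745 against 162 of 733 for the strain difference. It shifted the median of all genes by −0.15 in NOR, −0.27 in batch 1 nonprogressors, 0.10 in batch 2 progressors, −0.12 for strain by age, 0.18 for progression by time, −0.59 for nonprogressors at 22 weeks and −0.53 for the strain difference.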

Other observations

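Nonprogressor samples labelled by days after implantation had 2 samples a time and entered no comparison. Postn was at 262 and 335 CPM at 31 days, 196 and 211 CPM at 38 days and 205 and 242 CPM at 108 days, below the lowest of the 4 nonprogressor samples of batch 1 at 6 weeks (550 CPM). Sparc was at 1542 and 1561 CPM, 1294 and 1426 CPM, and 990 and 1011 CPM, against 2108 CPM for the lowest at 6 weeks. The share of all genes that lay below their 6-week samples in this way was not counted. Cthrc1 was at 8.45 and 12.6 CPM, 6.96 and 8.28 CPM, and 4.96 and 5.32 CPM. Aspn was at 16.0 and 29.4 CPM, 21.7 and 22.7 CPM, and 23.6 and 26.3 CPM, and Edil3 at 13.0 and 13.2 CPM, and 12.8 and 22.4 CPM at 31 and 38 days. Thbs2 was at 256 and 264 CPM, 204 and 235 CPM, and 283 and 365 CPM, so it overlapped the 6-week range of 296 to 443 CPM at 108 days. Fn1 was at 5670 and 6023 CPM, 3983 and 5035 CPM, and 5507 and 5655 CPM. T cell markers in these 6 libraries summed to 25.2 to 47.4 CPM, against 7.42 to 15.3 CPM at 6 weeks, and B cell markers to 21.8 to 23.0 CPM at 108 days, against 0.351 to 0.439 CPM, and their part in these levels was not tested.

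In NOR mice the imprinted genes of juvenile growth H19 (−2.03), Plagl1 (−1.67) and Mest (−2.12 on the log2 scale) were called lower after 6 weeks (edgeR adjusted p = 0.0162, 0.0171 and 0.0281), where none of the 10 matricellular genes was called. They were 3 of 6 listed genes of juvenile growth, and 7 of all 19628 genes were called. With each mouse left out that total ran from 0 to 54, and with mouse as a block it was under 7. Between 10 and 22 weeks in the same mice, 3 of 5 platelet markers were called higher, Pf4 by 0.98, Ppbp by 1.79 and Itga2b by 1.30 on the log2 scale. Of the 7 fibroblast markers 2 were called higher, Clec3b (2.91) and Pi16 (2.55), beside 5.28% of all genes. From 5 weeks before onset to onset, with batch as a term, the matrix genes Smoc2 (−1.96, edgeR adjusted p = 0.0293), Comp (−2.61, edgeR adjusted p = 0.0304) and Podn (−1.03, edgeR adjusted p = 0.03) were called lower in progressors. Of 19 matricellular relatives tested 2 were called lower, and of 11 proteoglycans 1, beside 0.945% of all genes. In batch 1 alone 0 of 19596 genes were called lower. With each mouse left out, 10 to 1088 genes were called in either direction.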
